A study of Homo sapiens with 18 samples.

Results

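TOP2A occupancy after etoposide was followed in 4 chromatin immunoprecipitation libraries of KG-1, an established human cell line of myeloid leukaemia. They are the libraries that the labels give as TOP2A with vehicle or with etoposide, and they make up 4 of the 12 immunoprecipitated libraries with peak lists and 4 of 18 samples in all. Their lists hold 698087 of the 1413022 MACS peaks of the series. In the vehicle group (2 libraries) the cells received methanol for 1 h, and in the etoposide group (2 libraries) they received 100 µM etoposide for 1 h. The same TOP2A antibody was used throughout, and DNA from 3 precipitations was pooled for each library. Whether the 2 replicates are separate cultures is not stated in the labels, so p-values reflect a spread among libraries that may be only technical. The TOP2B libraries of the same experiment, 2 with vehicle and 2 with etoposide, serve as the comparison for statements about TOP2A alone.

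DNA topoisomerase II passes a DNA duplex through a transient double-strand break in another and so removes knots, tangles and supercoils. TOP2A is the isoform of dividing cells, where it decatenates sister chromatids and acts on centromeric DNA in mitosis, while TOP2B is also present in cells that do not divide. Etoposide is a topoisomerase II poison that slows the religation of the break and so traps the enzyme covalently on DNA as a cleavage complex. The question was whether the drug changes the shape of TOP2A peaks, the number of tags in them and their distribution along the chromosomes.

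On chromosomes 1 to 22 and X, the MACS lists held 214612 and 246985 peaks in vehicle replicates 1 and 2, and 35932 and 192989 peaks in etoposide replicates 1 and 2. The lists of SISSRs, a second peak caller, held 214199, 243495, 64360 and 191779 sites in the same order. Etoposide replicate 1 therefore stands apart from the other TOP2A libraries before any position is considered. In that library 55.3% of the SISSRs sites lay in a MACS peak, against 96.8% to 97.2% in the other 3. TOP2B etoposide replicate 1 showed the same traits: 61.5% of its sites lay in a MACS peak, against 93.4% to 98.0% in the other TOP2B libraries, and its list of 69773 peaks was the shortest of the 4. Depth is unknown, as no read totals were at hand, and intervals on shares below cover counting error only.

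Most TOP2A peaks had the smallest width of their list, with and without the drug. The median width equalled the smallest width in every list, at 108 bp and 128 bp with vehicle and 98 bp and 126 bp with etoposide. The mean width was 120.0 bp and 153.0 bp with vehicle (mean 137 ± 23.3, SD, n = 2) and 112.1 bp and 144.8 bp with etoposide (128 ± 23.1, SD, n = 2). The replicate numbers thus differed more than the treatments did. The log2 difference was -0.10 in replicate 1 and -0.08 in replicate 2, with a mean of -0.09 (exact permutation p = 0.667, two-sided). Without vehicle replicate 2 the difference was 0.09, and without etoposide replicate 1 it was 0.10. Each omission leaves the groups with unlike replicate numbers, by which the widths differed. With 2 against 2 libraries the smallest possible p is 0.333, so no comparison of this kind could pass 0.05. For TOP2B the log2 difference in mean width was -0.14 and -0.38.

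The share of peaks at the smallest width went opposite ways in the replicates. It was 71.1% and 69.98% with vehicle (mean 70.6 ± 0.809 percentage points, SD, n = 2), and 58.0% and 76.5% with etoposide (67.3 ± 13.1, SD, n = 2). The exact binomial (Clopper-Pearson) 95% intervals were narrow, at 57.5% to 58.5% in etoposide replicate 1 and 76.4% to 76.7% in etoposide replicate 2. The difference was -13.1 percentage points in replicate 1 and 6.57 in replicate 2 (exact permutation p = 1, two-sided), and 5.99 without etoposide replicate 1. Peaks of at least 2 times the smallest width made up 4.35% and 7.41% of the vehicle lists and 2.59% and 5.98% of the etoposide lists. Both etoposide lists had a lower share of such wide peaks than the vehicle list of the same number, but the groups overlapped.

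The widest peak of each of the 4 lists lay close to a centromere. The widest peak spanned 2833 bp in vehicle replicate 1, at hg19 chr4:49093265-49096097, and 5433 bp in vehicle replicate 2, at chr18:18514943-18520375. With etoposide it spanned 3572 bp in replicate 1, at chr6:58776183-58779754, and 4678 bp in replicate 2, at chr4:49640756-49645433. Each of these peaks was within 1 Mb of the longest stretch of its chromosome that holds no peak in any list of the series, a stretch taken here to mark the unassembled centromere region. By the authors' score the widest peak ranked at the percentile 1.18 and 25.7 of its own list with vehicle, and at 100 and 0.419 with etoposide.

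Tags per SISSRs site separated the libraries strongly, but not by treatment. The median was 182 and 42 tags with vehicle and 30 and 70 tags with etoposide. The mean was 222 and 51.7 tags with vehicle (137 ± 121, SD, n = 2) and 52.6 and 83.6 tags with etoposide (68.1 ± 21.9, SD, n = 2). The median of etoposide replicate 1 was 0.165 times that of vehicle replicate 1, while those of etoposide replicate 2 had a median 1.67-fold higher than vehicle replicate 2. On the log2 scale the difference in medians was -2.60 in replicate 1 and 0.74 in replicate 2 (mean -0.93, exact permutation p = 0.667, two-sided). The difference in means was -2.08 and 0.69 (exact permutation p = 1, two-sided). Without vehicle replicate 1 the differences in medians and means were 0.13 and 0.36. Tag numbers move with sequencing depth, which is unknown, and its part in the difference was not tested.

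**Figure D1:**
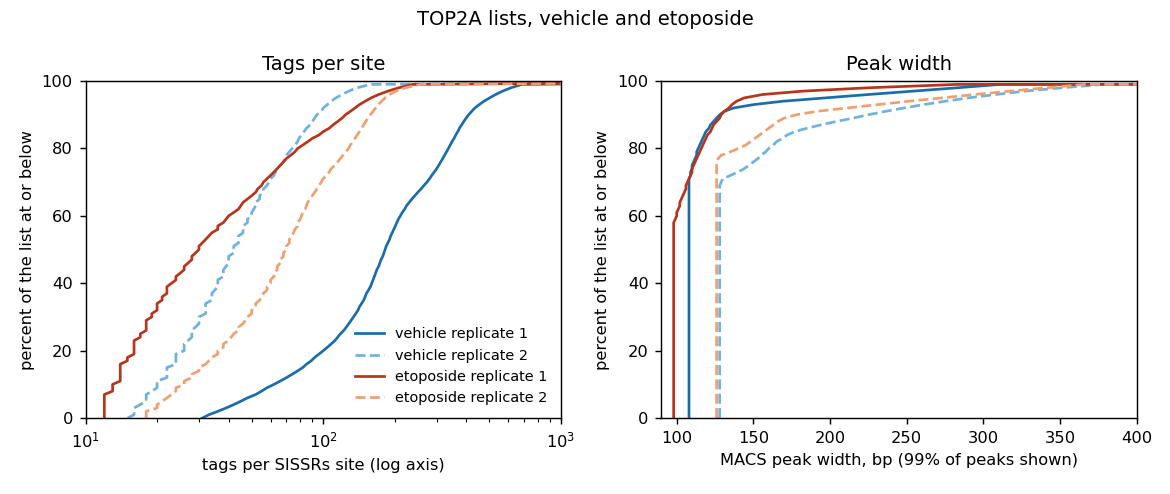
Cumulative share of SISSRs sites by tags per site (left, log axis) and of MACS peaks by width in bp (right) for the 4 TOP2A libraries. Vehicle replicate 1 lies farthest to the right in tags, with a median of 182, and the vertical start of each width curve is the smallest width of that list.

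The authors' fold over background per site, which SISSRs gives beside the tags, had a median of 87.2 and 109 with vehicle and 58.3 and 106 with etoposide. Over all sites etoposide replicate 1 was again the lowest. Its sites inside narrow MACS peaks had a higher median, 58 tags and a fold of 135, than its list as a whole. The corresponding sites had 170 and 38 tags with vehicle and 68 tags in etoposide replicate 2. Their median fold was 82.8 and 103 with vehicle and 106 in etoposide replicate 2. At sites in narrow peaks etoposide replicate 1 was therefore the highest by fold. Tags summed to 1.85 and 0.331 per covered bp with vehicle and to 0.404 and 0.570 with etoposide, so the 2 vehicle libraries differed from each other more than the etoposide libraries did.

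A small number of sites held a disproportionate share of the tags in all libraries. The 1% of sites with most tags held a mean of 4.59% of them with vehicle (SD 0.277, n = 2) and 6.01% with etoposide (SD 2.02, n = 2). The difference was 3.05 percentage points in replicate 1 and -0.20 in replicate 2 (exact permutation p = 0.667, two-sided), and -0.00014 without etoposide replicate 1. The site with most tags was chr1:121484111-121485311 in vehicle replicate 2 (25003 tags) and in etoposide replicate 2 (31278 tags). It held 0.198% and 0.195% of all tags in these lists. In etoposide replicate 1 the leading site was chr8:43092771-43093611, with 16978 tags or 0.502% of the list's tags. In vehicle replicate 1 it was chr6:24651091-24651131, with 43565 tags or 0.0915%. The places on chromosomes 1 and 8 lie within 1 Mb of the peak-free stretch, and the place on chromosome 6 lies on the short arm, 34.1 Mb from it.

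The distribution of TOP2A peaks over chromosome arms was nearly the same with and without etoposide. Arms were the 2 sides of the peak-free stretch on 19 chromosomes, and chromosomes 13, 14, 15 and 22, which show no such stretch of at least 1 Mb, were left whole. Across the 42 arms, the share of peaks had a Pearson correlation of 0.996 between vehicle and etoposide replicate 1 and 0.999 for replicate 2, against 0.998 between the vehicle libraries. Arms are not independent replicates and differ in length, so these values describe and do not test. The long arm of chromosome 8 held 2.30 and 2.31 times the mean density of its list with vehicle and 2.32 and 2.33 times with etoposide. The long arm of chromosome X held 0.511 and 0.488 times the mean density with vehicle and 0.510 and 0.511 times with etoposide.

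No arm passed the test of limma at a Benjamini-Hochberg adjusted p of 0.05 (0 of 42, or 0%), and 2 arms (4.76%) had an unadjusted p under 0.05. With the replicate number as a block, which leaves 1 residual degree of freedom, limma called 2q (log2 -0.04) and 8q (log2 0.01). Without etoposide replicate 2 it called 3 arms (9p, 9q and 10q), and without vehicle replicate 1 it called 21p. The 95% interval of the log2 difference lay within 1.5-fold for all 42 arms and within 1.2-fold for 39 of them. The widest bounds were an upper bound of 1.21-fold at 21p and a lower bound of 0.799-fold at 9p. By direction, 10 arms (23.8%) were higher with etoposide in both replicate numbers, 10 (23.8%) were lower in both, and 22 went opposite ways.

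Differences were small in the arms that had the same direction in both replicates. The long arm of chromosome 16 held 3271 and 3853 peaks with vehicle (152 and 156 per 10000 peaks of the list) and 634 and 3051 with etoposide (176 and 158 per 10000). Both etoposide values were above both vehicle values, as in 7 of the 42 arms (16.7%), while both were below in 5 arms (11.9%). The log2 difference on 16q was 0.21 in replicate 1 and 0.02 in replicate 2. The long arm of chromosome 9 held 283 and 284 peaks per 10000 with vehicle and 266 and 274 with etoposide, with log2 differences of -0.09 and -0.05. On the long arm of chromosome 2 the values were 520 and 525 per 10000 with vehicle and 503 and 511 with etoposide, with log2 differences of -0.05 and -0.04. The largest difference in either replicate was on 9p in replicate 1, at -0.30 on the log2 scale, where replicate 2 gave 0.03.

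**Figure D2:**
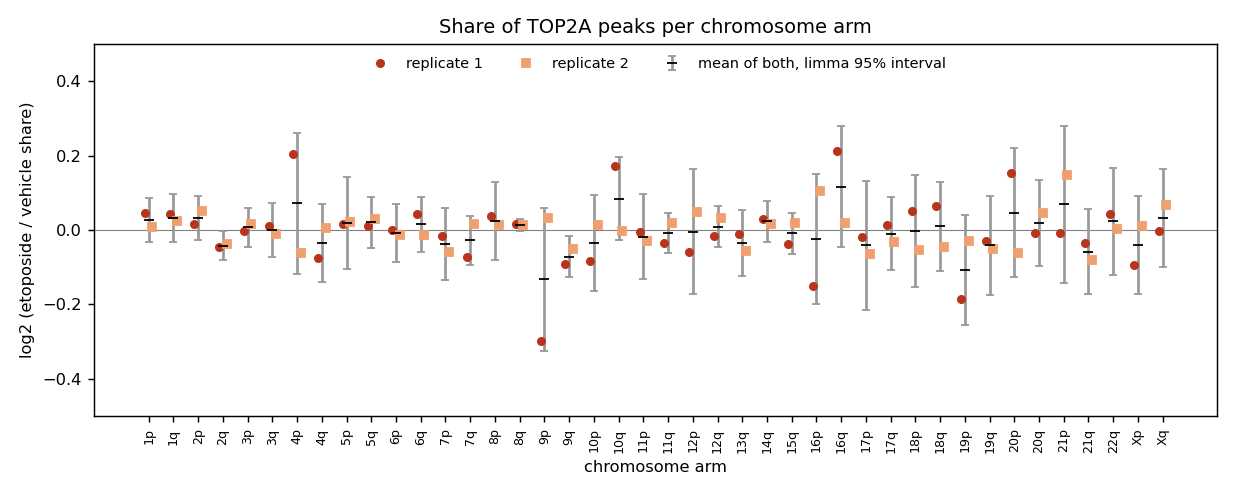
Log2 ratio of the etoposide to the vehicle share of TOP2A peaks for each of 42 chromosome arms (y axis), by replicate number (points), with the mean and its limma 95% interval (bars). All intervals lie within 1.5-fold, and replicate 1 scatters more widely than replicate 2.

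In windows of 5 Mb, the differences seen in one replicate number did not recur in the other. The test covered 599 windows, with a median of 358 and 423 peaks per window with vehicle and 59 and 330 with etoposide. Etoposide was higher in both replicate numbers in 158 windows (26.4%) and lower in both in 149 (24.9%), and the remaining 292 went opposite ways. Both etoposide libraries lay above both vehicle libraries in 101 windows (16.9%) and below both in 92 (15.4%). The Pearson correlation of the log2 differences between the replicate numbers was -0.01 over the 599 windows. No window exceeded 1.5-fold in the same direction in both replicates. The SD of the differences was 0.26 in replicate 1 and 0.13 in replicate 2, and counting error alone would give 0.23 and 0.12.

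limma called no window (0 of 599, or 0%), and 17 windows (2.84%) had an unadjusted p under 0.05. The 95% interval lay within 1.5-fold for 554 of the 599 windows and within 2-fold for 589. Tags in SISSRs sites of the same windows gave 0 calls (0%) and 23 windows (3.84%) with an unadjusted p under 0.05. The test of whether the etoposide difference was unlike that of TOP2B also gave 0 calls (0%), with 14 windows (2.34%) at an unadjusted p under 0.05. Leaving out etoposide replicate 2, so that the comparison rests on etoposide replicate 1 against both vehicle libraries, gave 110 windows by peaks, 66 by tags and 10 for TOP2A against TOP2B. Without vehicle replicate 2, 1 window was called by peaks and 1 by tags. In each of these fits the treatment left with 1 library is assumed to vary like the groups that keep 2.

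**Figure D3:**
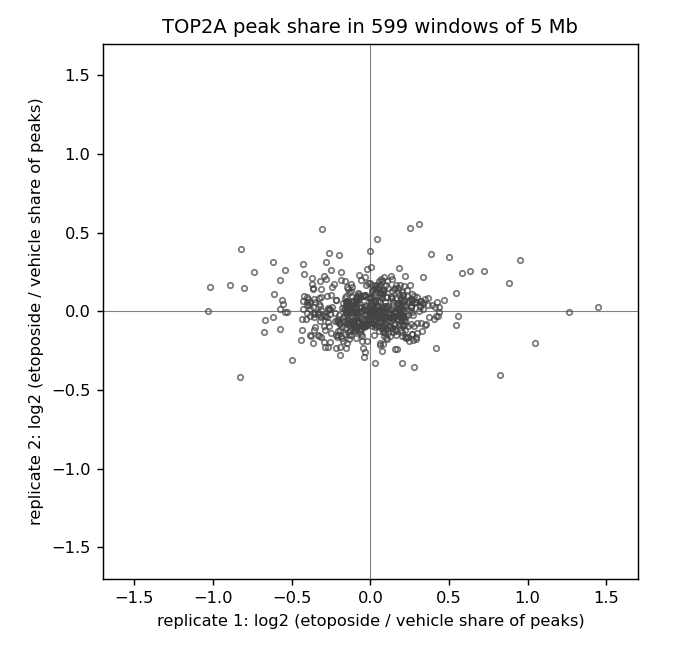
Log2 ratio of the etoposide to the vehicle share of TOP2A peaks in 599 windows of 5 Mb, replicate 1 (x axis) against replicate 2 (y axis), 1 point per window. The points form a round cloud that is wider along replicate 1, and the correlation between the replicates is -0.01.

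The windows of highest density were largely shared. Of the 20 windows with the most peaks, 17 were shared by all 4 libraries, and all 17 were on chromosome 8. Vehicle and etoposide shared 17 of 20 in replicate 1 and 20 of 20 in replicate 2, and the vehicle libraries shared 19 of 20 with each other. The number of copies of chromosome 8 in these cells and its part in the density were not tested, as the input samples are not analysed here.

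The windows that were higher with etoposide in both replicates were named by rank of the smaller of their differences, so their direction is a description. The first was at 95 to 100 Mb of chromosome 7, with 198 and 196 peaks with vehicle (9.23 and 7.94 per 10000) and 43 and 197 with etoposide (11.97 and 10.2 per 10000). Its log2 differences were 0.39 and 0.36 (limma estimate 0.38, SE 0.15, adjusted p = 0.935). The largest log2 difference of the 6 such windows was on the X chromosome at 60 to 65 Mb. There 137 and 156 peaks were found with vehicle (6.38 and 6.32 per 10000) and 44 and 153 with etoposide (12.2 and 7.93 per 10000). The differences were 0.95 and 0.33 in replicates 1 and 2 (limma estimate 0.64, SE 0.21, adjusted p = 0.935). TOP2B differed by 0.22 and 0.16 in this window, in the same direction.

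Of the 6 higher windows named, 4 touch the peak-free stretch of their chromosome, as do 32 of all 599 windows (5.34%). The 6 were picked by the size of their difference, which is less precise where a window holds few peaks, so this count is a description. Besides the X window they were at 90 to 95 Mb of chromosome 2, 35 to 40 Mb of chromosome 16 and 120 to 125 Mb of chromosome 1. Peaks numbered 310 and 205 with vehicle and 73 and 204 with etoposide in the chromosome 2 window. They numbered 26 and 26, and 5 and 30, in the chromosome 16 window. In the chromosome 1 window they numbered 140 and 162, and 36 and 151. The medians over all windows were 358 and 423 with vehicle and 59 and 330 with etoposide. At the chromosome 2 window the share was 14.4 and 8.30 per 10000 with vehicle and 20.3 and 10.6 with etoposide, so the groups overlapped. At the chromosome 1 window it was 6.52 and 6.56 with vehicle and 10.0 and 7.82 with etoposide, and the groups did not overlap. TOP2B gave log2 differences of -0.70 and -0.02 in this chromosome 1 window, but the difference between the antibodies did not pass the test (limma interaction 0.81, SE 0.27, adjusted p = 0.991).

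The 6 lower windows named included 1 on chromosome 13, which has no such stretch, and the other 5 lay at least 22.3 Mb from the stretch of their chromosome. The first, at 140 to 145 Mb of chromosome 9, held 143 and 156 peaks with vehicle (6.66 and 6.32 per 10000) and 13 and 91 with etoposide (3.62 and 4.72 per 10000). The log2 differences were -0.83 and -0.42 (limma estimate -0.63, SE 0.20, adjusted p = 0.935). This window is the end of the long arm of chromosome 9. The second, at 60 to 65 Mb of chromosome 20, is the end of the long arm of that chromosome and held 13.5 and 13.4 peaks per 10000 with vehicle and 9.46 and 10.8 with etoposide.

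At 1 Mb the differences were larger and less precise. Over 2887 bins, 755 (26.2%) were higher in both replicates, 650 (22.5%) were lower in both and 1482 went opposite ways. Here 6 of the 2887 bins exceeded 1.5-fold in both replicates upward and 5 downward. Beyond 1.5-fold in either direction were 615 bins in replicate 1 and 80 in replicate 2. The Pearson correlation of the log2 differences between the replicate numbers was -0.01 over the bins. limma called 0 of 2887 (0%), and 100 (3.46%) had an unadjusted p under 0.05. Without etoposide replicate 2 it called 549. At 61 to 62 Mb of the X chromosome, beside its peak-free stretch, there were 31 and 32 peaks with vehicle and 27 and 45 with etoposide. Per 10000 these were 1.44 and 1.30 with vehicle and 7.51 and 2.33 with etoposide. The log2 difference was 2.38 in replicate 1 and 0.84 in replicate 2 (limma estimate 1.61, SE 0.46, adjusted p = 0.939). At 46 to 47 Mb of chromosome 8, also beside the peak-free stretch, the share was 1.35 and 0.648 per 10000 with vehicle and 7.24 and 1.14 with etoposide. The vehicle libraries differed from each other by more than etoposide replicate 2 did from vehicle replicate 2. By rank of the smaller difference, the first higher bin was X at 35 to 36 Mb, 22.6 Mb from the stretch (log2 1.03 and 0.91). The first lower bin, at 47 to 48 Mb of chromosome 9, touches the stretch. It held 30 and 28 peaks with vehicle and 2 and 12 with etoposide (log2 -1.03 and -0.83, limma adjusted p = 0.939). The other lower bins named were 65.3 Mb (X) and 94.3 Mb (chromosome 4) from it or on chromosome 13.

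TOP2A peaks were denser beside the peak-free stretch than the mean of their list in every library, and most dense there in etoposide replicate 1. In the first 250 kb on either side of the stretch of the 19 chromosomes, the vehicle libraries had 1135 and 1134 peaks, or 52.9 and 45.9 per 10000 (95% intervals 49.9 to 56.0 and 43.3 to 48.7). The etoposide libraries had 477 and 1026 peaks, or 132.8 and 53.2 per 10000 (121 to 145 and 50.0 to 56.5). Relative to the mean density of its own list, the density was 1.59 and 1.38 with vehicle and 3.99 and 1.60 with etoposide. Both etoposide values exceeded both vehicle values, the lower of them by 53.2 against 52.9 per 10000. This window of 250 kb was chosen after its values were seen, so no test is given. In the next 250 kb the density was 1.32 and 1.19 with vehicle and 1.16 and 1.29 with etoposide, and etoposide replicate 1 was no longer the highest.

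The excess of etoposide replicate 1 was uneven over the chromosomes. With etoposide the share of peaks in this window was higher on 14 of 19 chromosomes in replicate 1, on 13 in replicate 2 and on 10 in both. Some of these differences were small, such as 2.51 against 2.47 per 10000 on chromosome 3 in replicate 1. The share of the whole window was higher in both replicate numbers, so the counts by chromosome describe and do not test. In etoposide replicate 1 the chromosomes with most such peaks were 10 (65 peaks), 8 (60 peaks), 16 (56 peaks), 2 (48 peaks) and X (41 peaks). On chromosome 10 that was 18.1 per 10000, against 3.08 and 2.11 with vehicle and 2.75 in etoposide replicate 2. TOP2B was denser there as well, at 1.75 and 1.33 with vehicle and 2.09 and 1.74 with etoposide, relative to its lists' mean density.

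**Figure D4:**
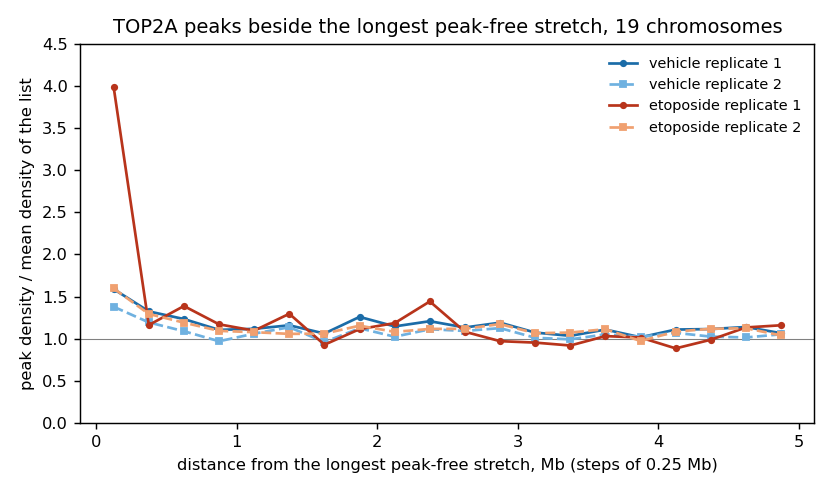
TOP2A peak density in steps of 0.25 Mb (x axis) away from the longest peak-free stretch of 19 chromosomes, relative to the mean density of each list (y axis), 1 line per library. In the first step etoposide replicate 1 stands at 3.99 and the other 3 libraries between 1.38 and 1.60.

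Wide peaks of etoposide replicate 1 were frequent there. Of its wide peaks, 221 lay in the first 250 kb, or 23.8% of them, against 1.95% and 1.09% with vehicle and 1.59% in etoposide replicate 2. Peaks at the smallest width made up 21.6% of the peaks in this window in etoposide replicate 1, and 56.2%, 56.6% and 57.4% in the other TOP2A libraries. TOP2B etoposide replicate 1 was alike, with 8.91% of its wide peaks in this window and 29.7% of the window's peaks at the smallest width. The other TOP2B libraries had 1.38% to 3.01% and 62.5% to 64.0%. Within the wider distance of 2 Mb the share of peaks was 3.27% and 2.96% with vehicle and 4.03% and 3.16% with etoposide. That is a difference of 0.76 and 0.20 percentage points (mean 0.48, exact permutation p = 0.667, two-sided), and the groups overlapped. Without etoposide replicate 1 the mean difference was 0.05.

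Near the ends of chromosomes the share of TOP2A peaks was slightly lower in both etoposide libraries. An end was taken as the first or last peak of the chromosome in any list. On chromosomes 13, 14, 15, 21 and 22 the first peak lay between hg19 positions 9414081 (chromosome 21) and 20000637 (chromosome 15). That end is therefore not the tip of these chromosomes. On chromosome 21 it is close to the peak-free stretch, which starts at 11188107. Values without these ends are not given. Peaks within 5 Mb of an end made up 9.22% and 8.89% with vehicle (mean 9.06 ± 0.232 percentage points, SD, n = 2) and 8.68% and 8.76% with etoposide (8.72 ± 0.0610, SD, n = 2). The groups did not overlap. The difference was -0.55 percentage points in replicate 1 and -0.13 in replicate 2 (mean -0.34, exact permutation p = 0.333, two-sided, the smallest possible). For TOP2B it was -0.998 and 0.11 percentage points, and these groups overlapped.

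Few places held a peak in all 4 libraries. Of 669258 merged MACS places, 16 did, and 648713 were found in 1 library only. Of the 16, 6 lay in a segment of 16162 bp on the short arm of chromosome 6, at chr6:24650947-24667108, and they held peaks in all 4 TOP2B libraries too. They ranked at or above the percentile 86.0 of every TOP2A list by the authors' score. Their SISSRs sites held 126111 and 20434 tags with vehicle and 11382 and 33947 with etoposide. Scaled to 1000000 tags of each list this was 2649 and 1622 scaled tags with vehicle and 3362 and 2118 with etoposide, 1.27-fold and 1.31-fold higher in replicates 1 and 2. The groups overlapped, because vehicle replicate 1 was above etoposide replicate 2. TOP2B held 2012 and 984 scaled tags with vehicle and 3046 and 1207 with etoposide, also higher in both replicates. The only TOP2A block lower with etoposide was chr6:24666731-24667108 in replicate 1, at -0.13 on the log2 scale. The strongest block, chr6:24650947-24651346, held 915 and 503 scaled tags with vehicle and 1096 and 639 with etoposide.

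The other 10 shared MACS places had lower score ranks. The next by rank was chr8:118028412-118028865, with 328 and 46 tags with vehicle and 194 and 138 with etoposide. This place held no SISSRs site or MACS peak in any TOP2B library. Its lowest rank was the percentile 24.4, in vehicle replicate 1. The place at chr1:121354754-121357046, 0.13 Mb from the peak-free stretch, held 1354 and 390 tags with vehicle and 163 and 471 with etoposide, and its lowest rank was the percentile 1.10. Its tags were 7.44 and 9.29 times the median site of the list with vehicle and 5.43 and 6.73 times with etoposide.

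SISSRs sites gave 326 places in all 4 libraries, and most of these lay near centromeres. They had a median merged width of 921 bp. Of the 326, 224 (68.7%) lay within 2 Mb of the peak-free stretch, whereas 3.65% and 3.37% of all sites did with vehicle and 5.00% and 3.65% with etoposide. Within 250 kb there were 137 (42.0%). The 326 places held 1.48% and 1.72% of all tags with vehicle and 4.61% and 1.66% with etoposide. Etoposide replicate 1 was again the only library far from the other 3. Relative to the tags of each list, 288 places were higher with etoposide in replicate 1 and 38 lower, with a median log2 difference of 1.43. In replicate 2, 171 were higher and 155 lower, with a median of 0.03. Higher in both replicates were 147 places and lower in both were 14. A place needed a site in every library, so the counts describe and do not test. Of the 326 places, 180 held a site in all 4 TOP2B libraries and 13 in none.

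The 326 places clustered in 79 bins of 1 Mb, and the 5 bins with most places held 103 of them. On chromosome 8 at 86 to 87 Mb, 36 places covered 44336 bp and held 130 and 165 scaled tags with vehicle and 295 and 149 with etoposide. This bin is 39.9 Mb from the peak-free stretch. On chromosome 4 at 49 to 50 Mb, beside the peak-free stretch, 19 places held 1213 and 1442 scaled tags with vehicle and 7673 and 1447 with etoposide. On chromosome 10 at 42 to 43 Mb, 18 places held 2729 and 2924 with vehicle and 7515 and 2271 with etoposide. Replicate 1 was thus 6.33-fold and 2.75-fold higher with etoposide in the chromosome 4 and chromosome 10 bins, and replicate 2 was 1.00-fold and 0.777-fold.

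Of the 5 bins, those on the X chromosome and chromosome 21 were more than 1.2-fold higher with etoposide in both replicates. Each place needed a site in etoposide replicate 1, the shortest list, so the folds describe and do not test. Scaling was to tags in called sites, 3385184 in etoposide replicate 1 against 12596519 to 47610693 in the other TOP2A lists. The part of these totals in the folds was not tested. On the X chromosome at 61 to 62 Mb, 17 places held 221 and 230 scaled tags with vehicle and 660 and 292 with etoposide, a fold of 2.98 and 1.27. On chromosome 21 at 10 to 11 Mb, 13 places held 64.4 and 64.2 with vehicle and 265 and 85.2 with etoposide, a fold of 4.12 and 1.33. In both bins the 2 groups did not overlap, nor did they in the chromosome 4 bin, by 1447 against 1442 scaled tags. The share over all 79 bins is not given here. By peaks, both etoposide libraries lay above both vehicle libraries in 101 of 599 windows of 5 Mb (16.9%). TOP2B etoposide libraries lay above both TOP2B vehicle libraries in all 5 bins. Their lists held fewer tags in sites, 6196161 and 4585846 against 11267560 and 15691542 with vehicle. Scaled tags move with this total, and its part in the difference was not tested. At the X bin TOP2B held 283 and 185 scaled tags with vehicle and 369 and 324 with etoposide, and at the chromosome 21 bin 56.1 and 61.4 with vehicle and 110 and 137 with etoposide.

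**Figure D5:**
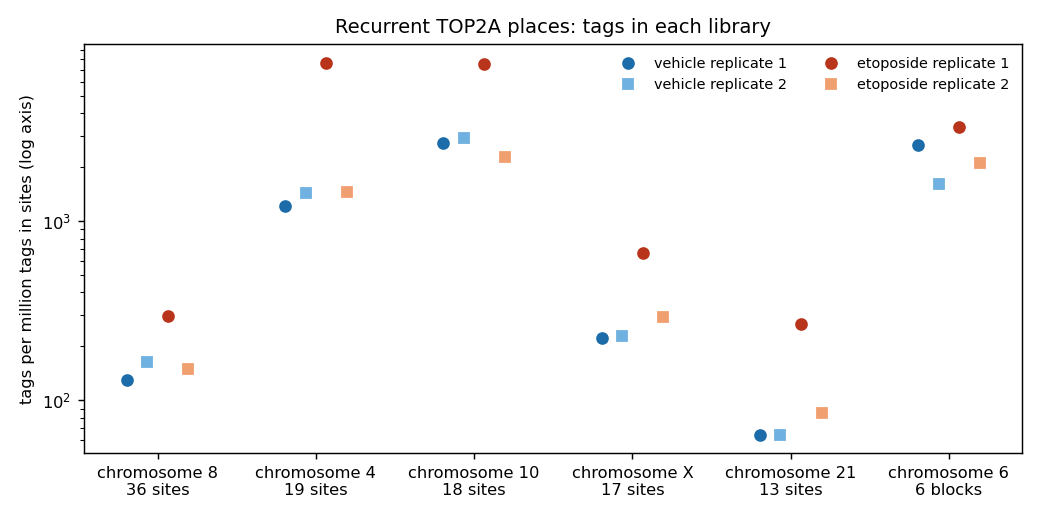
Tags scaled to 1000000 tags in SISSRs sites of each list (log axis) at the 5 bins with most recurrent TOP2A sites and at the chromosome 6 segment, 1 point per library. Etoposide replicate 1 is the highest library at each of the 6, from 265 on chromosome 21 to 7673 on chromosome 4. Places needed a site or peak in every list, and the lists of etoposide replicate 1 are the shortest.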

How the data were processed

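Chromatin of KG-1 cells was immunoprecipitated and sequenced as paired 50 bp reads, per the labels' protocols. Per the submitters' processing notes, MACS 1.4, Bowtie2 2.2.5 and bedtools 2.26.0 were used with the build hg19. The authors deposited 2 lists per library. The MACS list gives each peak a score, which starts at 50. The deposited SISSRs list has no header, and its columns were read from their values as the tag count, the fold and the p-value of each site. The authors called each library separately. The score was used to rank or filter peaks within a list, and the deposited p-value and fold were used for no test. Caller settings, duplicate handling and any use of input: not given in the sources used here.

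Peaks on chromosomes 1 to 22 and X were counted by midpoint in 1 Mb bins, 5 Mb windows and arms, as log2 peaks per 10000 with a pseudocount of 0.5. Features with a mean of at least 5 peaks (50 for arms) were tested with limma 3.58.1 (trend, robust) (R 4.3.3), with Benjamini-Hochberg adjustment and a threshold of 0.05. Tags were tested per 1000000 tags of the list with a pseudocount of 1. The fit was also run on simulated counts with 100 changed windows and the same spread in every library. Etoposide replicate 1 stands apart in the real lists, so that run says nothing on the calls here. Single values were compared by exact permutation over libraries. Other steps ran in Python 3.11.15 with scipy 1.17.1, pandas 2.3.3, numpy 2.4.6 and matplotlib 3.10.9. The peak-free stretch is the longest stretch of a chromosome without a peak in any list. A minimum of 1 Mb for it was set after the stretches were seen. Wide peaks have at least 2 times the smallest width. Places were merged peaks with at least 1 bp of overlap. Named windows were those with the largest smaller difference of both replicates, 6 (5 Mb), 4 (1 Mb) and 3 (arms) per direction. The members, lists and rules were chosen with earlier results of these data known. The gene tables at hand are on GRCh38.p14, so no gene was assigned to any place and no sequence is printed.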

Additional observations from a re-analysis of the deposited data

Results flagged for a closer look

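Peaks on sequences other than chromosomes 1 to 22 and X, which the comparisons leave out, made up 1.63% of the MACS list of etoposide replicate 1. The share was 1.22% and 0.925% with vehicle and 1.04% in etoposide replicate 2. Only etoposide replicate 1 was above both vehicle libraries. It is also the shortest TOP2A list, with 36528 peaks in all.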

How the results depend on the processing

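Of 92 alternative values, 71 kept their direction and lay within 1 SD of the libraries (single values) or within 1.5 times (counts), 15 moved further and 6 turned direction. As 1 SD is wide with 2 libraries per group, a value within it can still differ several-fold. One alternative, stretches of any length, was added after the data were seen and gave 0.49 percentage points for peaks within 2 Mb. With SISSRs sites the difference near chromosome ends was -0.67 percentage points, and 1 window of 5 Mb was called (X, 60 to 65 Mb). A pseudocount of 2 peaks called 1 bin of 1 Mb (X, 61 to 62 Mb). Places in all 4 libraries numbered 69 with peaks widened by 100 bp, 8 at a score of at least 100 and 326 with SISSRs sites.

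Leaving out single libraries moved the difference between -0.27 and 0.10 (log2) for mean width, -12.5 and 5.99 percentage points for the share at the smallest width, and -1.75 and 0.36 (log2) for mean tags. It moved median tags between -1.99 and 0.13 (log2), and the tag share of the top 1% between -0.00014 and 2.86 percentage points. For peaks within 2 Mb of the stretch it lay between 0.05 and 0.92, and for ends between -0.50 and -0.17. Direction turned without etoposide replicate 1 for mean width, the smallest width and the top 1%, without vehicle replicate 2 for mean width, and without vehicle replicate 1 for mean and median tags. limma calls ranged from 0 to 549 bins of 1 Mb, 0 to 110 windows of 5 Mb, 0 to 3 arms, 0 to 66 windows by tags and 0 to 10 windows for TOP2A against TOP2B, each highest without etoposide replicate 2. Without vehicle replicate 2, 1 window was called by peaks and 1 by tags, and without vehicle replicate 1, 1 arm.

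Peak shares showed no pairing by replicate number: the correlation of same-numbered deviations was 0.00490 over windows, 0.0101 over bins and -0.0146 over arms. Over windows the SD of the differences was 0.26 and 0.13, near the 0.23 and 0.12 of counting error. The correlation therefore cannot exclude pairing. Mean widths did go by replicate number, at 120.0 and 112.1 bp in replicate 1 and 153.0 and 144.8 bp in replicate 2. With the replicate number as a block, 2 arms were called (2q, log2 -0.04, and 8q, log2 0.01) and 0 bins or windows. That fit has 1 residual degree of freedom among the 4 libraries. Depth is unknown, so what it limits cannot be given, and 2 libraries per group cannot pass 0.05 for single values.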
